A study of Ovis aries with 2 samples.

Results

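The nuclear oxidative phosphorylation genes examined here were the 73 genes, of 18161 in the expression table, whose symbols begin with NDUF, UQCR, ATP5, SDHA, SDHB, SDHC, SDHD or COX4 to COX8. They comprised 36 complex I subunits, 8 complex I assembly factors, 4 subunits and 4 assembly factors of complex II, the complex III subunit UQCRH, the complex IV subunit COX5A, the paralogues NDUFA4 and NDUFA4L2, 16 subunits of complex V and its inhibitor ATP5IF1. Complexes III and IV were thus represented by very few genes, and subunits named only by LOC identifiers would be missed by this rule. None of 13 listed symbols of mitochondrially encoded subunits was found in the expression table, so these were not analysed here.

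Oxidative phosphorylation takes place at the inner mitochondrial membrane. Complexes I and II pass electrons from NADH and succinate to ubiquinone, complexes III and IV carry them on to oxygen, and complexes I, III and IV pump protons whose return through complex V (ATP synthase) drives ATP synthesis. In skin, the growing hair follicle contains proliferating matrix cells and differentiating shaft and sheath cells, and lactate-producing glycolysis is known to be active in the follicle beside respiration.

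The data were droplet single-cell RNA profiles of skin from Hu sheep lambs at day 3 after birth. One group was the straight wool type and the other the waved wool type, called curly in the library names. Skin of 3 lambs of each wool type was pooled into 1 library per type, and a suspension of microdissected follicles was mixed with one of whole skin. With 1 library per wool type there was no replicate and no test between wool types, wool type and library cannot be told apart, and a lower share of transcripts cannot be told apart from a higher level of other transcripts or, for a whole library, from fewer cells of a type.

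The straight library held 6452 cells with 57956122 UMIs (unique molecular identifiers, each marking 1 captured transcript) and a median of 7374 UMIs per cell. The curly library held 7585 cells with 77634565 UMIs and a median of 7495 UMIs per cell. The same barcode sequence occurred in both libraries for 70 barcodes. Cells fell into 20 clusters, of which 19 had at least 25 cells in each library and were compared. A cluster was given a cell type name with "-like" only where its markers allowed it, and the others are called by 2 leading genes. In the ALCAM and AFDN cluster the median was 713 UMIs per cell in straight and 747 in curly, far below both library medians. Levels are UMIs per 1000000 UMIs of all genes (CPM), summed over the cells of a cluster in 1 library. All intervals are 95% exact intervals and cover counting error only.

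Over whole libraries the 73 genes took 17338 CPM (17304 to 17372) in straight and 16768 CPM (16740 to 16797) in curly, or 1.73% and 1.68% of all UMIs. Each of the 73 genes had at least 100 UMIs. The 16 complex V subunits took 8071 CPM in straight and 7644 in curly, and the 36 complex I subunits took 6269 and 6037. The complex II subunits took 515 and 489 CPM. The assembly factors were far lower, at 198 and 184 CPM for complex I and 99.5 and 91.4 for complex II.

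The hair shaft-like cells and a cluster led by FABP7 and DCN had the highest summed levels, and the endothelial-like cells the lowest. Hair shaft-like cells, which make the keratin fibre, were at 20701 CPM (20573 to 20830) in straight and 21003 (20903 to 21103) in curly. The FABP7 and DCN cluster, whose highest marker scores were for cycling and matrix cells, was at 20565 CPM (20471 to 20660) and 19838 (19772 to 19904). These top clusters had overlapping intervals in straight but not in curly. Endothelial-like cells were at 13661 CPM (13461 to 13863) and 13030 (12790 to 13273), so the highest cluster was 1.52 times the lowest in straight and 1.61 times in curly.

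Between these ends, cycling-like cells stood at 18692 and 19763 CPM in straight and curly, and vascular smooth muscle or pericyte-like cells at 18761 and 18400. IRS-like cells (inner root sheath) were at 18332 and 16384 CPM, and DPC-like cells (dermal papilla cells, the mesenchymal signalling centre of the follicle) at 17509 and 17176. Suprabasal IFE-like cells (interfollicular epidermis) were at 15974 and 15243 CPM, and the KRT15 and DLK2 cluster at 15267 and 15055. Immune-like cells were at 15444 and 13735 CPM. The order of the 19 clusters was alike in both libraries (Spearman's rho 0.83, Pearson's r 0.90), as a description of 19 points that share each library's clustering. Neighbours in the middle of the order mostly had overlapping intervals. Endothelial-like was not the lowest under every scaling. With totals scaled by the trimmed mean of M values, the ALCAM and AFDN cluster was lowest in both libraries at 11046 and 9808 CPM. With means of per-cell CPM in straight, the KRT6A and FABP4 cluster was lowest at 13286 and the FABP7 and DCN cluster highest at 20110.

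**Figure D1:**
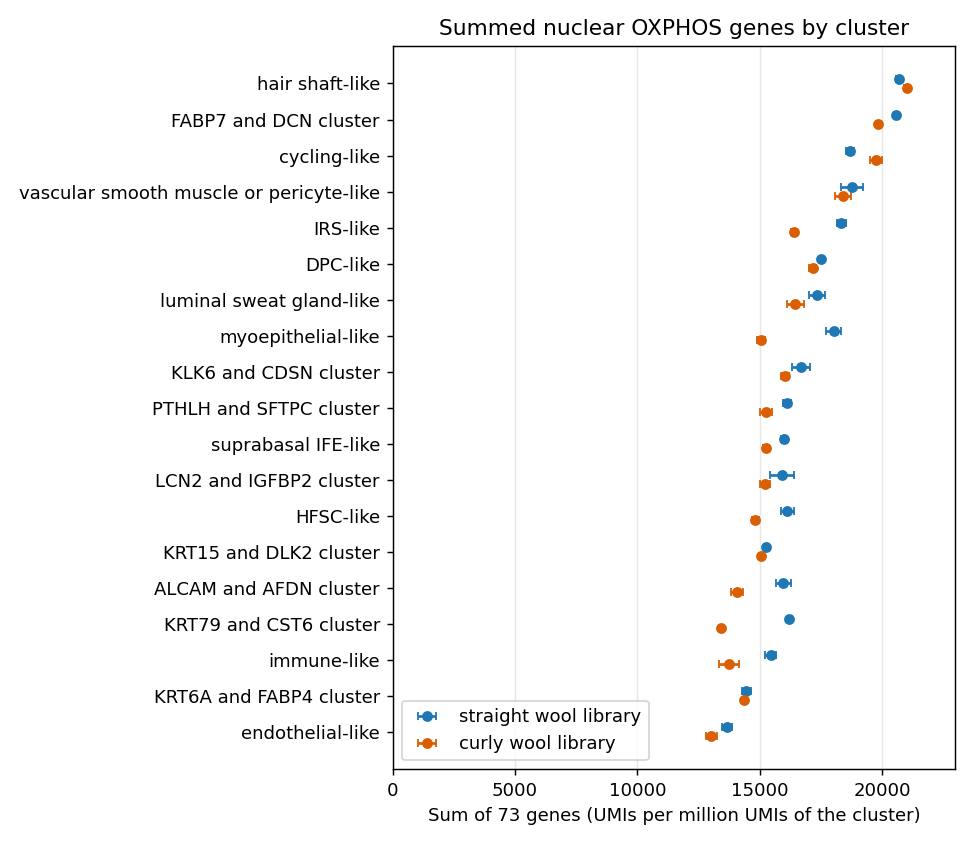
Summed level of the 73 genes (x axis, CPM) in each of 19 clusters (y axis), with 1 point per library and 95% exact Poisson intervals. Hair shaft-like cells are at 20701 CPM in straight and 21003 in curly, and endothelial-like cells at 13661 and 13030.

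The same difference was seen per cell at equal depth. When each cell was thinned to 1000 UMIs, the median hair shaft-like cell held 20 UMIs of the 73 genes in both libraries, with quartiles of 15 and 24 in straight and 16 and 24 in curly. The median endothelial-like cell held 13, with quartiles of 11 and 16 in both. Cells too shallow to thin numbered 27 and 55 in the hair shaft-like cluster and 39 and 29 in the endothelial-like cluster. Without thinning the medians were 2.01% and 2.03% of a cell's UMIs in hair shaft-like cells and 1.33% and 1.32% in endothelial-like cells. The median depth was 16661 and 16971 UMIs in hair shaft-like cells against 5306 and 3820 in endothelial-like cells.

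Most members followed the sum. Across the 19 clusters, 49 of the 50 members of at least 100 CPM in both libraries had a positive Spearman's rho with the summed level of the other members in both libraries, with a median rho of 0.50 in straight and 0.54 in curly. Of the other genes of at least 100 CPM, 493 of 946 did so, with medians of 0.06 and 0.14. These correlations share libraries, totals and depth across points. The exception was NDUFA8, a complex I accessory subunit, at -0.14 in straight and 0.45 in curly. Levels were also comparatively even: in 40 of these 50 members the highest cluster was under 3 times the lowest in both libraries, against 40.0% of all genes at that level. The median ratio of highest to lowest cluster was 2.46 over these members and 3.52 over all such genes.

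**Figure D2:**
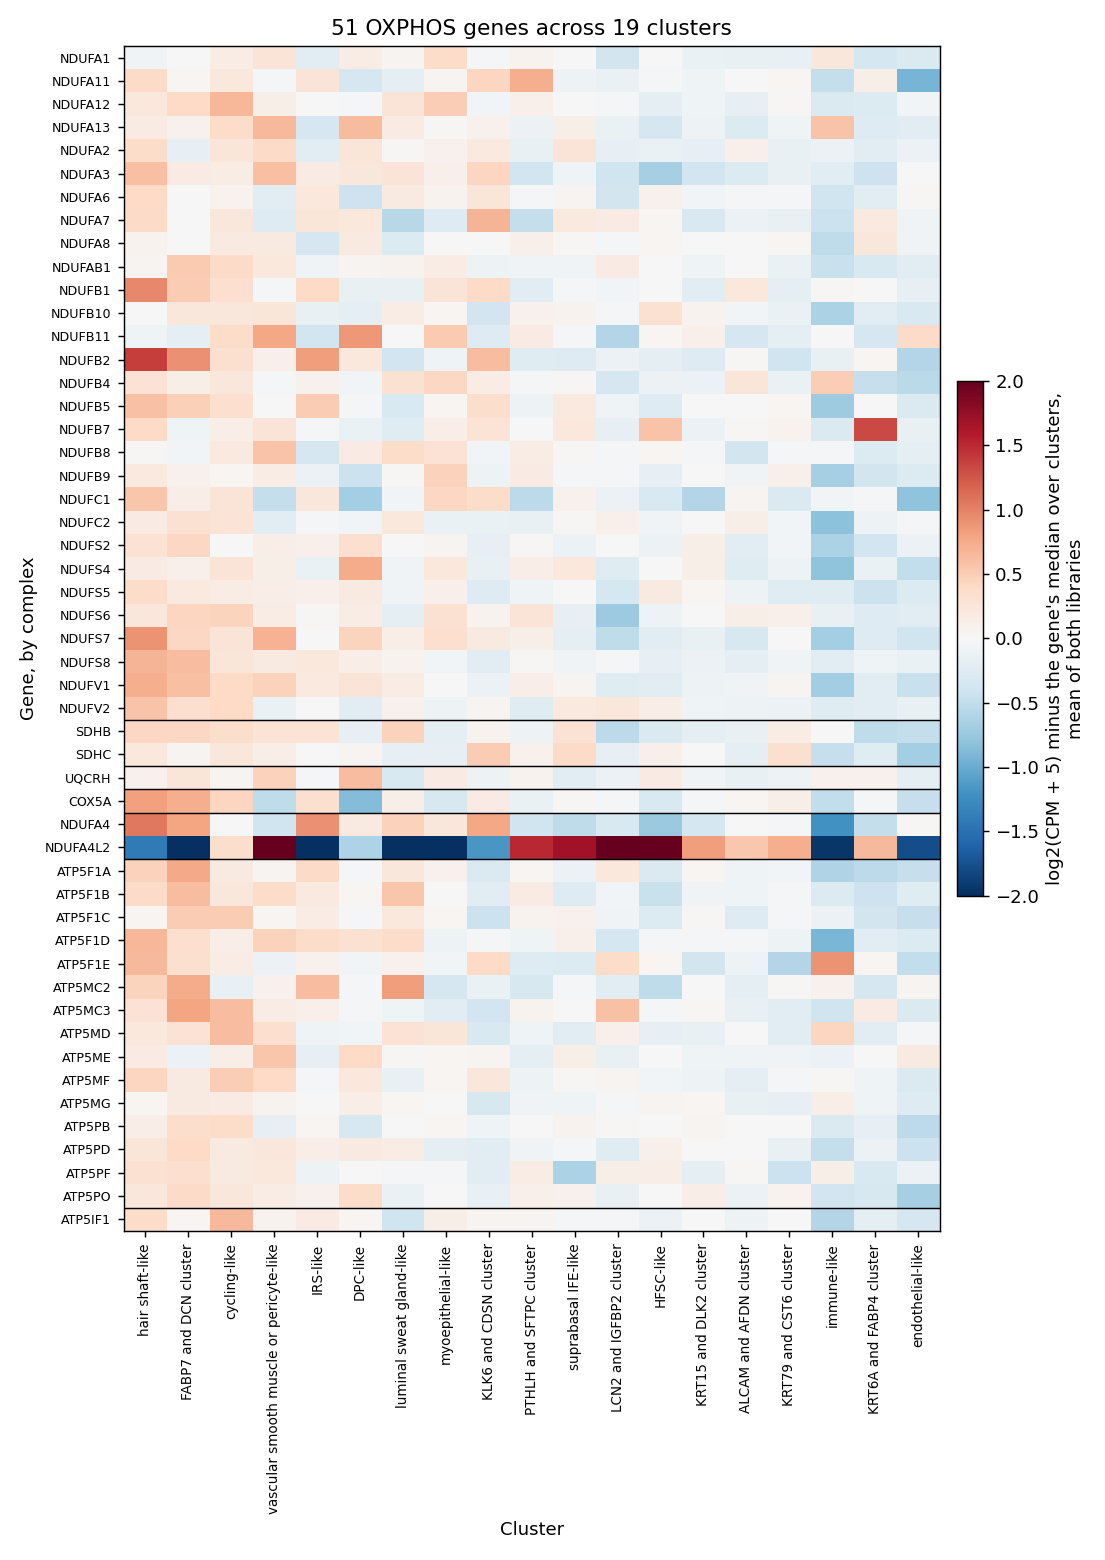
Level of the 50 members of at least 100 CPM in both libraries and of NDUFA4L2 (rows, grouped by complex) in 19 clusters (columns), as log2(CPM + 5) minus the gene's median over the clusters, averaged over both libraries on a colour scale from -2 to 2. Most rows have little contrast, apart from NDUFA4L2, which is at 339 CPM in straight and 244 in curly in the LCN2 and IGFBP2 cluster and at 14.7 and 7.58 for hair shaft-like cells.

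Hair shaft-like cells were at least 1.5-fold higher than endothelial-like cells in both libraries in 25 of 65 members with enough UMIs and lower in 2, against 23.7% and 21.2% of all genes in this comparison. These clusters were compared because they were highest and lowest by the sum of these same members. An excess of higher members therefore follows from the choice, and the counts only describe which members carry it. Of the subunits of complex I, the entry point for electrons from NADH, 13 of 36 were higher and 0 lower, and of those of complex V 6 of 15 were higher and 0 lower. NDUFB2, an accessory subunit of the membrane arm, had 700 CPM (676 to 724) among the hair shaft-like cells of straight and 841 (821 to 861) among those of curly, and 178 (156 to 203) and 206 (177 to 238) among endothelial-like cells. It was 2.08-fold and 2.38-fold higher in hair shaft-like cells than in the other clusters together. Dissociation response genes differed the other way between these clusters, with 5 of 7 tested genes lower in hair shaft-like cells and FOS at 798 and 823 CPM against 1887 and 2761, and their part in the result was not tested.

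Between hair shaft-like and IRS-like cells, neighbouring lineages of the follicle, few members passed 1.5-fold in both libraries. Of 65 members, 1 was at least 1.5-fold higher in hair shaft-like cells in both libraries and 0 were lower, against 11.0% and 6.67% of all genes. That gene was NDUFS7, a core iron-sulfur subunit, which hair shaft-like cells held at 199 and 210 CPM and IRS-like cells at 111 and 103. The gap was wider in curly: the member median was 0.13 on the log2 scale in straight and 0.38 in curly. Over all genes tested it was -0.01 and 0.24.

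The FABP7 and DCN cluster, among the top clusters by the sum of these same members, was compared with the KRT15 and DLK2 cluster. In both libraries 16 of 71 members were at least 1.5-fold higher and 3 lower, against 17.2% and 18.0% of all genes. The share of higher members was thus only slightly above that of all genes, while the share of lower ones was smaller. The member median was 0.37 on the log2 scale in both libraries, against 0.03 in straight and 0.09 in curly over all genes tested. The 3 lower members were SDHD, SDHAF4 and NDUFA4L2. DPC-like cells exceeded endothelial-like cells in 11 of 63 members, with 0 lower, against 19.7% and 13.2% of all genes, so that the share of higher members was near the background. Among them were NDUFS4, an accessory subunit of the NADH-oxidising arm, at 315 and 253 CPM against 110 and 124, and UQCRH, the hinge protein of complex III, at 1149 and 1074 CPM against 615 and 644.

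Several complex I subunits had their own leading cluster in both libraries. NDUFB11, an accessory subunit of the membrane arm, was highest in DPC-like cells at 444 and 450 CPM and lowest in the LCN2 and IGFBP2 cluster at 166 and 155. NDUFA11, another membrane arm subunit, was highest in the PTHLH and SFTPC cluster at 387 and 389 CPM and lowest in endothelial-like cells at 117 and 120. NDUFB7, another accessory subunit, was highest in the KRT6A and FABP4 cluster, at 601 CPM (562 to 642) in straight and 396 (381 to 412) in curly. For NDUFB11 and NDUFA11 the library values nearly coincided at both ends, while NDUFB7 was lower in the curly cells of its leading cluster.

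Complex II, which oxidises succinate and links the tricarboxylic acid cycle to the chain, varied most through its membrane anchor SDHD. SDHD was at 229 CPM (192 to 270) in straight and 249 (207 to 296) in curly in luminal sweat gland-like cells, and at 23.0 (16.6 to 30.9) and 19.6 (16.6 to 23.1) in IRS-like cells. In luminal sweat gland-like cells it was 3.44-fold and 4.86-fold higher than in the other clusters together. The flavoprotein SDHA, the iron-sulfur subunit SDHB and the anchor SDHC ranged only 2.07-fold to 3.26-fold from highest to lowest cluster in straight, against 9.96-fold for SDHD. In IRS-like cells SDHB stood at 256 and 261 CPM and SDHC at 127 and 120, so the low level there was that of SDHD and not of the other anchor. Hair shaft-like cells were also low in SDHD, at 24.5 and 23.2 CPM, although the summed members were highest there.

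SDHD and the assembly factor SDHAF4 were the 2 members lower in hair shaft-like than in endothelial-like cells. SDHAF4, which acts on SDHA during assembly, had 16.2 and 19.01 CPM against 36.0 and 31.2. It was highest in HFSC-like cells (hair follicle stem cells), at 111 CPM (90.2 to 135) in straight and 75.8 (66.0 to 86.6) in curly. SDHAF2, the factor needed to attach flavin to SDHA, was also highest in HFSC-like cells, at 50.4 and 56.1 CPM.

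The single complex III and complex IV subunits had different leading clusters. UQCRH was highest in DPC-like cells in straight, at 1149 CPM (1126 to 1173), and in vascular smooth muscle or pericyte-like cells in curly, at 1116 (1039 to 1198). Its lowest level was in luminal sweat gland-like cells, at 600 and 569 CPM. COX5A, a nuclear subunit of cytochrome c oxidase, was highest in hair shaft-like cells at 641 CPM (619 to 664) and 692 (674 to 711) and lowest in DPC-like cells at 211 (201 to 221) and 196 (181 to 212). DPC-like cells were therefore near the top for UQCRH and at the bottom for COX5A in both libraries.

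Complex V supplied 7 of the 10 members with the most UMIs, beside UQCRH, NDUFA4 and the complex I accessory subunit NDUFS5. Among them were ATP5F1E (the epsilon subunit of the catalytic head), ATP5MG (subunit g of the membrane part), ATP5ME (subunit e), ATP5F1B (the catalytic beta subunit), ATP5MC3 (subunit c), ATP5MF (subunit f) and ATP5PD (subunit d of the stalk). ATP5MG was among the most even members, from 799 to 1107 CPM over the clusters in straight and from 700 to 1054 in curly. ATP5F1E ranged more widely, and in immune-like cells it reached 2077 CPM in straight and 1585 in curly. ATP5IF1, which inhibits the reverse reaction of ATP synthase, was highest in cycling-like cells at 546 CPM (517 to 575) and 592 (549 to 637) and lowest in immune-like cells at 261 and 215. The ratio of complex V to complex I subunit UMIs was 1.65 and 1.503 in immune-like cells and 1.23 and 1.17 in hair shaft-like cells, and the lowest ratio, 1.06, was in the KLK6 and CDSN cluster of straight, which had 1.22 in curly.

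The rotor ring of ATP synthase is built from subunit c, which 3 genes encode as the same mature protein. ATP5MC3 and ATP5MC2 gave nearly all of the UMIs of the listed subunit c rows. ATP5MC1 appeared only as a row with a suffix, at 0.828 and 1.02 CPM. Whether that row holds all transcripts of the gene is not known, so the shares below are of the listed rows. The share of ATP5MC2 was 47.6% (43.5 to 51.8) in straight and 45.3% (40.7 to 49.9) in curly in luminal sweat gland-like cells. It was 23.5% (21.8 to 25.1) and 18.3% (16.3 to 20.5) in cycling-like cells and 18.4% (13.8 to 23.7) and 22.6% (20.3 to 24.9) in the LCN2 and IGFBP2 cluster. The balance of ATP5MC2 and ATP5MC3 thus differed between these clusters by more than counting error, in the same direction in both libraries.

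**Figure D3:**
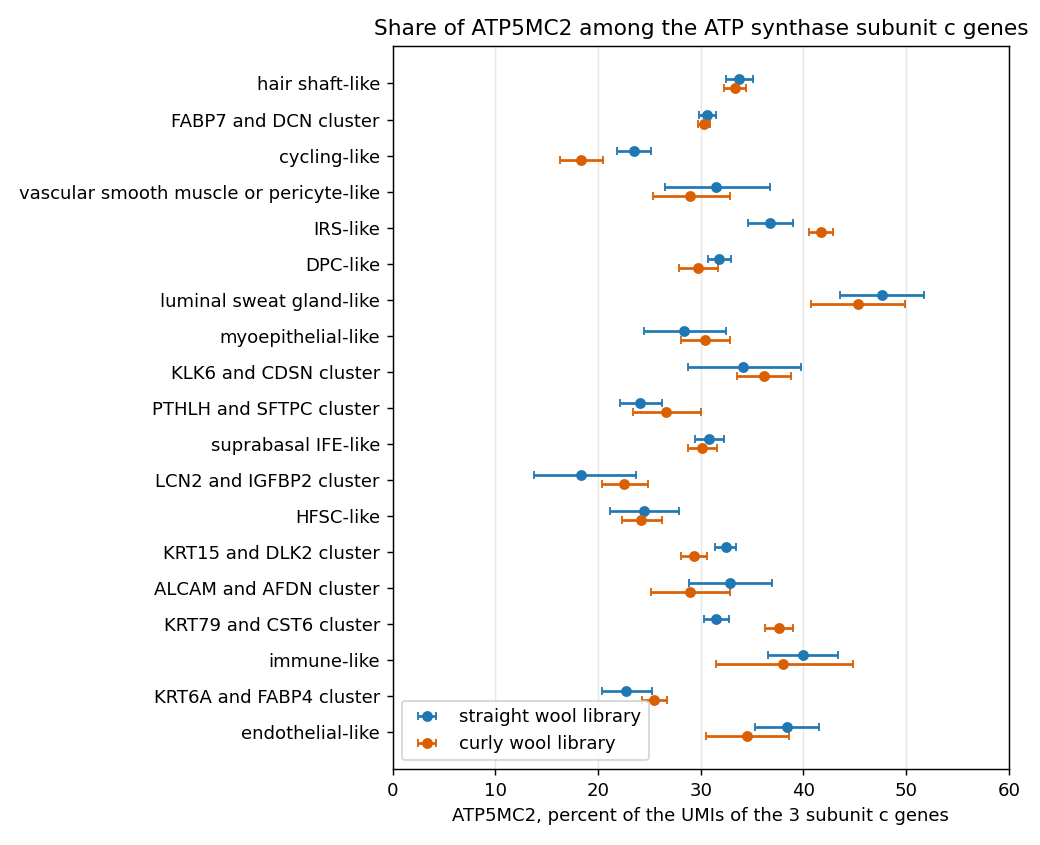
Percent of the UMIs of the listed subunit c rows that came from ATP5MC2 (x axis) in each cluster (y axis), with 1 point per library and 95% exact binomial intervals. Luminal sweat gland-like cells are at 47.6% in straight and 45.3% in curly, and cycling-like cells at 23.5% and 18.3%.

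NDUFA4, first listed with complex I and now assigned to complex IV, and its paralogue NDUFA4L2, known as a target of the hypoxia-inducible factor HIF1, differed in where they were expressed. NDUFA4 was highest in hair shaft-like cells, at 1045 CPM (1016 to 1074) in straight and 1050 (1028 to 1073) in curly, and lowest in immune-like cells, at 160 (138 to 184) and 283 (228 to 347). Hair shaft-like cells had only 14.7 and 7.58 CPM of NDUFA4L2, and the IRS-like cells of straight 2.67. It was at 339 CPM (271 to 419) and 244 (218 to 273) in the LCN2 and IGFBP2 cluster and at 271 (238 to 308) and 212 (196 to 230) in HFSC-like cells. Across the 19 clusters the rho of the pair was -0.71 in straight and -0.46 in curly, and r on the log2 scale was -0.58 and -0.60, as a description of clusters that share library and totals.

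NDUFA4L2 was the 1 member of 73 that was at least 4-fold higher in 1 cluster than in the other clusters together in both libraries, against 25.4% of genes. That cluster was the LCN2 and IGFBP2 cluster, at 7.28-fold in straight and 4.70-fold in curly, and it had 26 and 87 cells. The count became 0 without integration of the libraries and with means of per-cell CPM, and 2 with the highest doublet scores left out, when SDHD joined it.

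**Figure D4:**
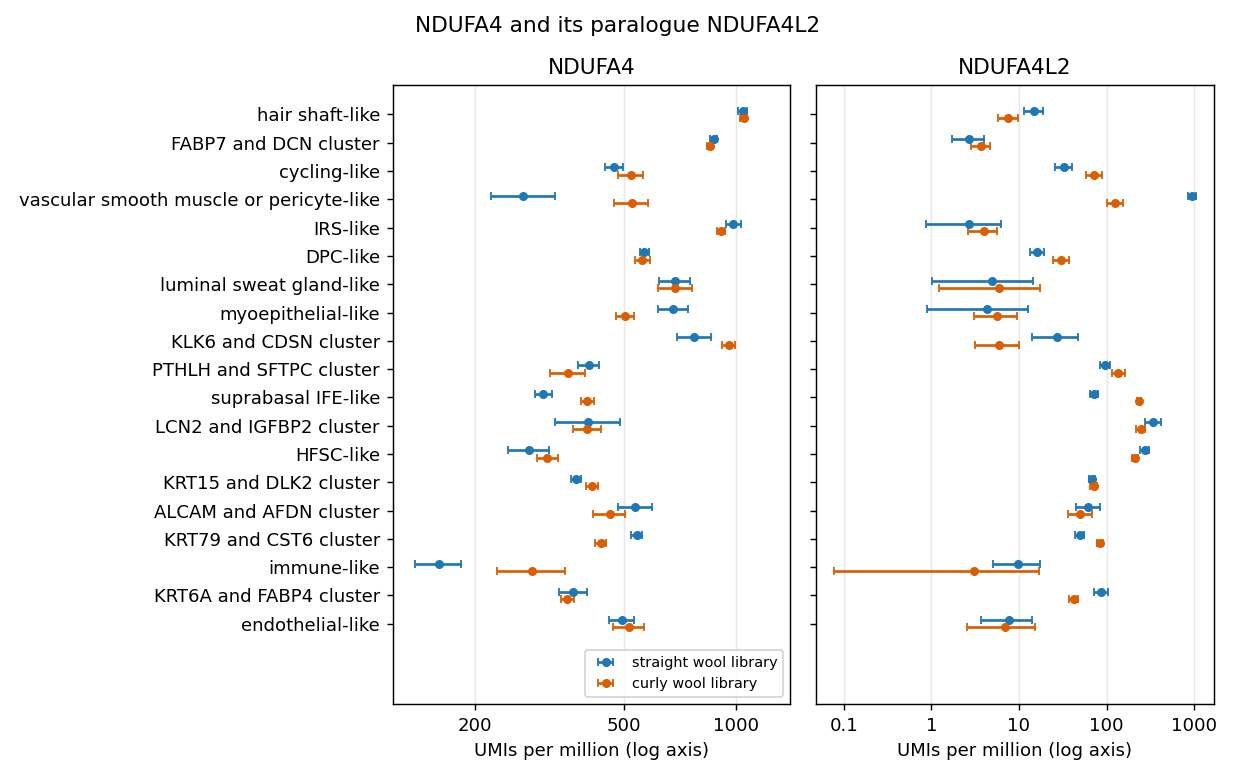
Levels of NDUFA4 (left panel) and NDUFA4L2 (right panel) in CPM on log x axes for 19 clusters (y axis), with 1 point per library and 95% exact Poisson intervals. NDUFA4 is highest in the hair shaft-like row, at 1045 and 1050 CPM, and NDUFA4L2 reaches 937 CPM in the vascular smooth muscle or pericyte-like cells of straight.

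Among pairs of a member and a cluster with at least 100 UMIs, the largest difference between libraries was that of NDUFA4L2 in vascular smooth muscle or pericyte-like cells, at 937 CPM (842 to 1039) in straight and 125 (100 to 155) in curly, a log2 ratio of -2.90 (-3.26 to -2.56). A UMI of NDUFA4L2 was found in 58.8% (47.6 to 69.4) of the 85 straight cells and 25.6% (18.99 to 33.2) of the 156 curly cells, and in 42.5% and 13.2% after thinning to 1000 UMIs. In IRS-like cells, where its level was among the lowest, the shares were 2.40% (0.498 to 6.85) and 6.51% (4.33 to 9.32) before thinning, at median depths of 16159 and 19192 UMIs.

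The make-up of this cluster also differed between the libraries. RGS5, a pericyte gene, was at 1726 CPM in straight and 268 in curly, while the smooth muscle genes DES and MYH11 were at 795 and 599 CPM in straight and 2190 and 1438 in curly. The 8 marker genes of the cluster summed to 9857 and 17665 CPM, and 7 of them were detected. Cells with a UMI of RGS5 were 62 of 85 in straight and 51 of 156 in curly. In these cells NDUFA4L2 was at 1241 CPM (1113 to 1379) in straight and 443 (346 to 558) in curly, and in the cells without RGS5 it was at 150 (85.8 to 244) and 28.5 (15.9 to 47.0). NDUFA4 went the other way, at 134 and 143 CPM with RGS5 and 619 and 642 without it. The cells with a UMI of RGS5 had median depths of 3385 and 2820 UMIs in straight and curly and those without it 4678 and 5014, and in the other 18 clusters 0.536% and 0.204% of cells held a UMI of RGS5. A cell without a UMI of RGS5 may still express it, so the split does not hold the make-up of the cluster equal, and the part of make-up in the result was not tested.

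In suprabasal IFE-like cells NDUFA4L2 differed in the opposite direction, at 71.2 CPM (63.8 to 79.2) in straight and 232 (219 to 245) in curly, a log2 ratio of 1.70 (1.53 to 1.88). A UMI was found in 27.4% (23.2 to 31.9) of straight cells and 59.5% (55.0 to 64.0) of curly cells, at median depths of 11400 and 10832 UMIs. At a finer clustering these cells fell mainly into a KRT1 and LY6D cluster, at 84.8 and 263 CPM, and a smaller suprabasal IFE-like cluster, at 23.9 and 146. Other genes of the hypoxia response were mixed: of 11 tested there, 2 were at least 1.5-fold higher and 6 lower in curly, against 9.17% and 13.9% of all genes in that cluster, with VEGFA at 41.3 and 16.2 CPM and BNIP3, a mitophagy receptor, at 64.0 and 144. The suprabasal marker genes summed to 50555 CPM in straight and 71265 in curly, and their part in the result was not tested. Of the 11 clusters with at least 100 UMIs of NDUFA4L2, it was at least 1.5-fold higher in curly in 4 and lower in 3.

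Apart from NDUFA4L2 the wool types were close. Between whole libraries the median log2 ratio of the members was -0.05, against -0.18 over all genes with 100 UMIs. No member differed by 1.5-fold there, with 29 higher and 44 lower in curly. The matching counts over all genes were not made, so these member counts have no background. Over all 1181 pairs of a member and a cluster with enough UMIs, 11 were at least 1.5-fold higher and 48 at least 1.5-fold lower in curly, or 0.931% and 4.06%, against 7.41% and 12.5% of all pairs of a gene and a cluster. With totals scaled by the trimmed mean of M values, 45 were higher and 33 lower, against 11.3% and 7.96% of all pairs. By total UMIs the lower pairs were 27 of 649 for complex I subunits, 6 of 55 for complex I assembly factors, 6 of 71 for complex II subunits and 3 of 285 for complex V subunits. Assembly factors had far lower levels than complex V subunits, and low counts pass 1.5-fold more readily through counting error. Neither these shares nor those of all pairs were matched for level, so they do not rank the complexes. The summed level was lower in curly in 17 of 19 clusters by total UMIs, in 13 with keratin and ribosomal protein genes out of the totals and in 6 with totals scaled by the trimmed mean of M values, so the direction depended on the scaling.

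That last scaling shifted the log2 ratio of every gene by between -0.20 in immune-like cells and 0.43 in the KLK6 and CDSN cluster, and leaving out keratin and ribosomal protein genes shifted it by between -0.13 and 0.15. The sum was lower in curly in 6 clusters under all of these totals and higher in 2, the hair shaft-like and cycling-like clusters. Myoepithelial-like cells, the contractile cells around the secretory part of sweat glands, were among the 6. There the sum was 18021 CPM (17705 to 18341) in straight and 15062 (14909 to 15215) in curly. Of 62 members, 51 had a log2 ratio below 0, against 1445 of 3280 genes of the cluster. The member median was -0.26, against 0.07 over all genes of the cluster. Only 5 of the 62 were at least 1.5-fold lower, against 8.60% of all genes there. Cytosolic and mitochondrial ribosomal protein genes of the cluster had medians of -0.25 and -0.23, and the dissociation response genes summed to 3918 CPM in straight and 7114 in curly; their part in the result was not tested. In the KRT79 and CST6 cluster, by contrast, 63 of 67 members were below 0, against 5090 of 6939 genes. The member median there, -0.29, lay near the all-gene median of -0.25.

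**Figure D5:**
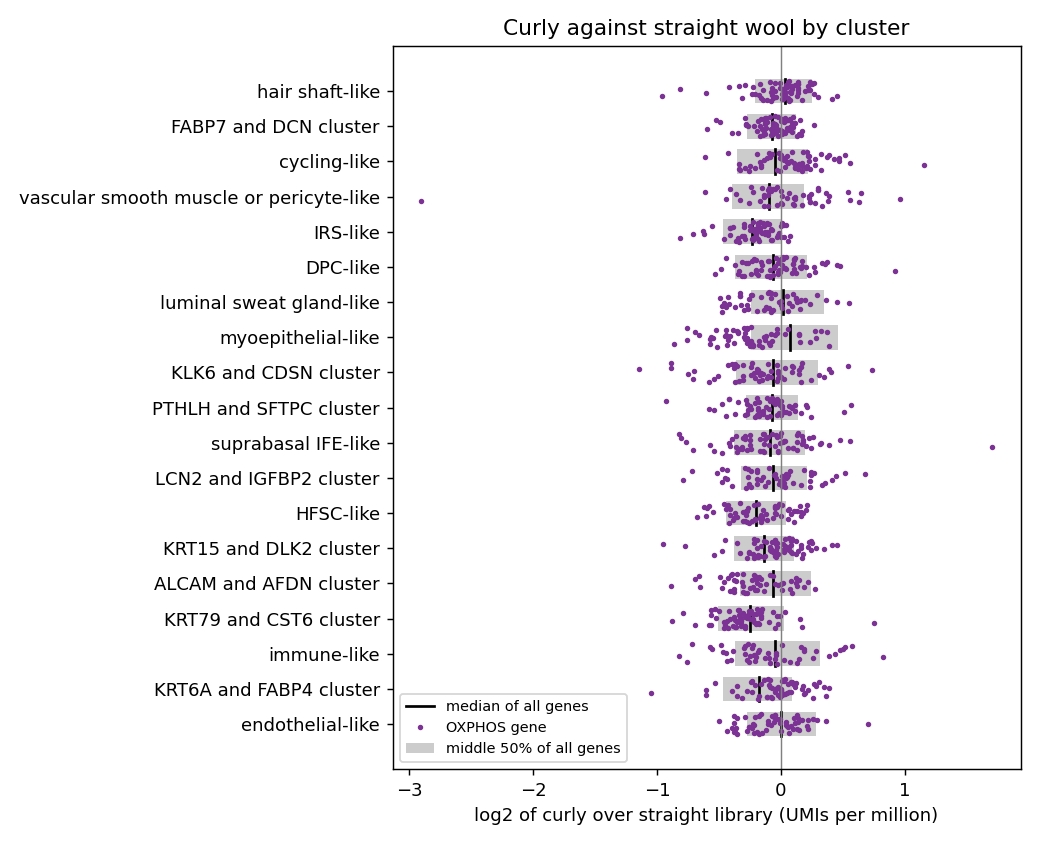
Log2 ratio of curly to straight CPM (x axis) in each cluster (y axis), with a dot for each member of at least 100 UMIs, a grey bar for the middle 50% of all genes and a black line for their median. Members mostly lie near the all-gene median, and NDUFA4L2 is far out at -2.90 in vascular smooth muscle or pericyte-like cells and 1.70 in suprabasal IFE-like cells.

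Of 56 members with at least 100 UMIs in at least 15 clusters, 4 were lower in curly in every such cluster, against 1.52% of genes, and 0 were higher in every one, against 2.35%. All are structural genes of complexes I and II: the complex I accessory subunits NDUFA5, NDUFS5 and NDUFB8 and the complex II flavoprotein SDHA. NDUFA5 had the largest shift, from 100.1 to 69.6 CPM over the libraries, a log2 ratio of -0.52 (-0.58 to -0.47). It was lower in 17 of 17 clusters, with a median log2 ratio of -0.48 and an interval below 0 in 12. In the FABP7 and DCN cluster NDUFA5 fell from 126 to 83.2 CPM and in the KRT79 and CST6 cluster from 100.1 to 54.5.

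SDHA was at 87.9 CPM in straight and 67.3 in curly, NDUFS5 at 543 and 457, and NDUFB8 at 160 and 128. With totals scaled by the trimmed mean of M values the direction of NDUFA5 held in 15 of 17 clusters, of SDHA in 15 of 16, of NDUFS5 in 13 of 19 and of NDUFB8 in 14 of 19. NDUFV3, a complex I accessory subunit of the NADH-oxidising arm, had enough UMIs in only 14 clusters and was lower in all 14. In the other direction NDUFA3, an accessory subunit of complex I, was higher in curly in 16 of 19 clusters with a median log2 ratio of 0.21. These counts over clusters were chosen after the values were seen, and the median difference of each of these genes was under 1.5-fold.

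Genes of neighbouring mitochondrial pathways were counted from lists of their own. The 17 tricarboxylic acid cycle genes summed across clusters much as the members did, with rho of 0.85 in straight and 0.84 in curly. Mitochondrial carriers and import genes had 0.75 and 0.70, and the 75 mitochondrial ribosomal protein genes 0.60 and 0.65. Glycolysis genes had 0.19 and 0.40, hypoxia response genes -0.18 and -0.24, biogenesis factors 0.28 and 0.52, other oxidative phosphorylation genes outside the symbol rule 0.30 and 0.27, uncoupling and antioxidant genes 0.14 and 0.48, cytosolic ribosomal protein genes 0.09 and 0.40, and dissociation response genes -0.18 and -0.26. Cycling markers had 0.02 and 0.04 and the median UMI count per cell 0.37 and 0.30. These values are across 19 clusters that share libraries and totals. The order of the lists depended on the totals. With keratin and ribosomal protein genes out of them, tricarboxylic acid cycle genes had 0.83 and 0.71 and cytosolic ribosomal protein genes 0.42 and 0.80. Hypoxia response genes then had -0.14 and 0.08, other oxidative phosphorylation genes 0.48 and 0.52, and the median UMI count per cell 0.51 and 0.53.

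In the comparison of hair shaft-like with endothelial-like cells, 8 of 15 tested tricarboxylic acid cycle genes were at least 1.5-fold higher in both libraries and 0 were lower, against the 23.7% and 21.2% of all genes given above. MDH2, the mitochondrial malate dehydrogenase, had 409 and 398 CPM against 119 and 138. Mitochondrial ribosomal protein genes were higher in 24 of 72 and lower in 4, with MRPL23 at 388 and 413 CPM against 164 and 169. Carriers and import genes were higher in 4 of 8 and lower in 1, and SLC25A3, the phosphate carrier that supplies ATP synthase, was at 705 and 717 CPM against 424 and 300. Glycolysis genes divided, with 5 of 15 higher and 3 lower. GAPDH was at 926 and 866 CPM against 505 and 429, and ENO1 at 557 and 602 against 487 and 439. ALDOA was at 425 and 511 CPM against 444 and 449. LDHA, which makes lactate, was at 219 and 239 CPM against 541 and 291, so it passed 1.5-fold in straight only.

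Between wool types the glycolysis genes had 52 of 255 pairs of a gene and a cluster at least 1.5-fold lower in curly and 11 higher, and the tricarboxylic acid cycle genes 25 of 210 lower and 1 higher. Over all pairs 12.5% were lower and 7.41% higher, so the lower share of the tricarboxylic acid cycle genes, 11.9%, was near that of all genes. Hypoxia response genes had 36 of 120 lower and 16 higher. Mitochondrial ribosomal protein genes had 72 of 991 lower and 29 higher, carriers and import genes 11 of 162 lower and 2 higher, lower shares of 7.27% and 6.79%, and cytosolic ribosomal protein genes 32 of 1474 lower and 5 higher. Dissociation response genes went the other way by pairs, with 12 of 136 lower and 29 higher. Over whole libraries, however, they summed to 6422 CPM in straight and 5553 in curly. They also split by cluster: all 7 tested were higher in curly in endothelial-like cells, and all 7 lower in HFSC-like cells. Biogenesis factors had 7 of 40 lower and 0 higher, uncoupling and antioxidant genes 15 of 90 lower and 4 higher, and other oxidative phosphorylation genes 8 of 72 lower and 1 higher.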

How the data were processed

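Single-cell RNA libraries of skin from 1 pool of straight wool lambs and 1 pool of waved (curly) wool lambs were analysed. Per the study's methods and the submitters' processing notes, reads were aligned to a Rambouillet sheep genome and counted per cell barcode with Cell Ranger (version 3.0.2 in the notes; the methods name another version), and the authors deposited natural log values, ln of 1 plus UMIs per 10000 UMIs of the cell. UMI counts were recovered from them: 100% of 28552149 values came out whole within 0.01. The study states 15830 cells and the table held 14037. Its supplement gives a minimum of 200 genes per cell, which all 14037 passed, and a further minimum of 1750, which 3964 straight and 4321 curly cells passed, so the deposited table was not limited to those cells; that minimum was used as an alternative. A stated maximum of mitochondrial reads was not applied here.

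Cells were integrated by library with Seurat 5.3.0 (R 4.3.3) in 30 dimensions, without the members among the variable genes, and clustered at resolution 0.3. A cluster was named from marker lists where its mean marker score was at least 1.5 and led the next by 0.1, with at least 3 markers detected in 10% of its cells. The named type also had to have more markers among the cluster's 10 leading genes than any other type. Scrublet scores (scanpy 1.11.5) served only for an alternative that left out the highest 6% (842 cells). UMIs were summed per library and cluster, with exact Poisson, binomial and ratio intervals (scipy 1.17.1, Python 3.11.15). Only the ratio intervals were checked on simulated counts, which held counting error alone. Comparisons used genes with at least 100 UMIs and a 1.5-fold difference. No test was run because each wool type was 1 library.

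Members and lists were chosen with earlier results of these data known. Genes were named by rule: isoform groups, the 10 members with the most UMIs, the 10 with the largest fold of the leading cluster over the rest, in each cluster the 2 highest and 2 lowest ratios of curly to straight, and the 4 genes with the most UMIs of each other list (tricarboxylic acid cycle, glycolysis, carriers and import, biogenesis factors, hypoxia response, uncoupling and antioxidant, dissociation response, mitochondrial and cytosolic ribosomal proteins, oxidative phosphorylation genes outside the rule). Genes named outside it were chosen after their values were seen. Alternatives are given in the closing section.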

Additional observations from a re-analysis of the deposited data

Results flagged for a closer look

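The ratio of curly to straight for NDUFA4L2 ran in opposite directions in different cell types. Its log2 ratio was 1.70 in suprabasal IFE-like cells and -2.90 in vascular smooth muscle or pericyte-like cells, and it drew attention because the same comparison of wool types gave opposite signs, with 4 of the 11 clusters that had at least 100 UMIs of the gene at least 1.5-fold higher and 3 lower in curly. With 1 library per wool type the difference between these cell types was not tested.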

How the results depend on the processing

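The ratio of the highest to the lowest cluster in the summed members, 1.52 in straight and 1.61 in curly, was 1.70 and 1.92 at clustering resolution 0.8, 2.15 and 2.56 with totals scaled by the trimmed mean of M values, and 1.75 and 2.08 with totals without keratin and ribosomal protein genes. It was 1.57 in straight with the members kept among the variable genes, 1.55 in straight without integration, and 1.48 in curly with means of per-cell CPM. The number of clusters with a median member ratio above 0, 3 of 19, was 5 of 27 at resolution 0.8, 13 with the trimmed mean of M values and 6 without keratin and ribosomal protein genes. Pairs of a member and a cluster at least 1.5-fold higher in curly, 11 by the main analysis, numbered 25 with means of per-cell CPM, 45 with the trimmed mean of M values and 5 with a minimum of 300 UMIs. Pairs at least 1.5-fold lower, 48, numbered 95 at resolution 0.8 and 21 with a minimum of 300 UMIs. The count of members at least 4-fold higher in 1 cluster, 1, was 2 with the highest doublet scores left out, and 0 without integration and with means of per-cell CPM. The sign of the curly to straight ratio of the summed members was not stable across scalings. In IRS-like cells its log2 was -0.16 by total UMIs and 0.22 with the trimmed mean of M values. The summed members of single clusters stayed within their interval in 38 of their repeats and moved beyond it in 52, and single members stayed within theirs in 325 and moved beyond it in 35. Leaving out the ALCAM and AFDN cluster, an alternative chosen after seeing the data, left the ratios at 1.52 and 1.61. Where values moved, the cause was not tested beyond the settings named. No paired analysis was possible because each wool type was 1 library of pooled lambs, which also left no replicate to leave out.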

Other observations

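Of the members with the highest or lowest ratios in a cluster, a few have not yet been named. ATP5F1E was at 984 CPM in the straight cells of the KLK6 and CDSN cluster and 1640 in the curly cells, a log2 ratio of 0.74 (0.59 to 0.88), on 43 and 190 cells. In immune-like cells, 300 in straight and 91 in curly, NDUFA13, a complex I accessory subunit, was at 458 and 259 CPM and NDUFA4 at 160 and 283. NDUFA2, a complex I accessory subunit, was at 178 and 290 CPM in endothelial-like cells. Suprabasal IFE-like cells had 493 and 279 CPM of ATP5F1A, the alpha subunit of ATP synthase. NDUFS3, a core complex I subunit, was at 111 and 49.9 CPM in the KLK6 and CDSN cluster.

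The cluster left out of comparisons for its few cells, 18 in straight and 64 in curly, had summed members at 13998 and 8254 CPM.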
